A study of Mus musculus and Homo sapiens with 180 samples.

Results

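A group of 56 genes was close to silent in HuDEP-2 cells given solvent and was detected after 168 h with SGC0946, an inhibitor of the histone methyltransferase DOT1L. The genes were chosen by their measured values. Counts were turned into counts per 1000000 reads on genes (CPM), and a gene entered when its mean was under 1.5 CPM over the 4 DMSO libraries and at least 4 CPM over the 4 SGC0946 libraries. The rule found 56 of 44429 genes, of which 34801 lay under 1.5 CPM with DMSO. The mirrored rule, at least 4 CPM with DMSO and under 1.5 CPM with SGC0946, held for 3 genes, ACTL8, SATB1 and FNDC3B.

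HuDEP-2 (HUDEP-2 in the labels) is an immortalised line of human erythroid progenitors from umbilical cord blood, kept dividing by an inducible viral oncogene. It was treated with DMSO or with SGC0946 at 5 µM for 168 h (4 libraries each). In a separate experiment cells were pretreated for 7 days with DMSO or SGC0946 (5 µM) and were either kept in expansion medium with dexamethasone, doxycycline, stem cell factor and erythropoietin or moved to erythroid differentiation medium. This gave the groups DMSO Undifferentiated, SGC0946 Undifferentiated, DMSO Differentiation and SGC0946 Differentiation, with 3 libraries each, all labelled 7 days plus 72 h. K562, an erythroleukaemia line that carries the BCR-ABL1 fusion, was treated with DMSO or with SGC0946 at 5 µM for 168 h (4 libraries each). MOLM13 control cells, a myeloid leukaemia line with an MLL fusion, carried a non-targeting guide RNA. They were treated with DMSO or with SGC0946 at 5 µM for 72 h (3 libraries each). Their model also held MOLM13 libraries of BCOR and PCGF1 knockout cells and of cells given the Menin inhibitor VTP50469 (500 nM). Each experiment rests on 1 cell line, and nothing in the labels says that libraries of a group came from separate cultures, so p-values measure the spread between these libraries.

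DOT1L methylates lysine 79 of histone H3 in the bodies of transcribed genes, and SGC0946 blocks it by taking the place of its methyl donor. PRC1.1 is a Polycomb complex that ubiquitinates histone H2A at CpG-rich promoters. The study asked whether a loss of H3K79 methylation lets PRC1.1 act on genes in cells without an MLL fusion, and whether it changes how erythroid progenitors respond when they are later made to differentiate. Erythroid progenitors express globin, haem synthesis and red cell membrane genes and hold genes of other lineages silent.

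In 3′ RNA-seq each transcript gives reads from its polyadenylated end, so CPM values do not scale with transcript length. Reads on genes totalled 5216015 to 9499861 per library at 168 h, 5583064 to 13681475 in the pretreatment experiment, 6939093 to 12550004 in K562 and 4283204 to 6330489 in MOLM13. At 168 h the DMSO libraries were the shallower ones in part, at 5216015 to 8616517 reads against 7846147 to 9499861 with SGC0946. Of 27 erythroid marker genes, 26 had at least 2 CPM in each HuDEP-2 group, and their summed level was 35670 to 42040 CPM with DMSO and 33120 to 37070 CPM with SGC0946 at 168 h. Summed marker levels of several other blood lineages were higher with SGC0946 at 168 h. Those of 17 B cell genes overlapped, at 0.58 to 4.22 CPM with DMSO and 3.12 to 5.37 CPM with SGC0946. The summed level of 20 granulocyte genes was 2.49 to 4.74 CPM with DMSO and 5.68 to 10.7 CPM with SGC0946, of 25 monocyte and macrophage genes 23.3 to 29.6 and 31.1 to 44.4 CPM, of 24 T and NK cell genes 0.144 to 1.34 and 2.80 to 3.70 CPM, and of 19 megakaryocyte genes 19.6 to 39.1 and 50.2 to 69.6 CPM. Called higher at 168 h were CEBPE (1 of 2 granulocyte genes tested), VCAN and CTSS (2 of 5 monocyte and macrophage genes), CD3D (the 1 T and NK cell gene tested, with a log2 fold change of 3.92) and F2RL3 (1 of 2 megakaryocyte genes). The defining genes ELANE, PRTN3, AZU1, CD163, MRC1, CD3E, CD3G, PF4 and PPBP had no read in either group. The summed level of the 24 mast cell, basophil and eosinophil genes overlapped, at 1058 to 1206 CPM and 1066 to 1166 CPM, while of 11 tested CPA3, SIGLEC6 and PRG2 rose and GATA2 and ENPP3 fell. Of the 56 genes, CPA3 and CEBPE are members of these lists. The rule chose both for a rise in these same libraries. Their calls at 168 h and their part of the sums were therefore largely set by it. In expansion medium the monocyte and macrophage sums overlapped, at 37.4 to 39.9 CPM with DMSO and 31.3 to 45.3 CPM with SGC0946. The megakaryocyte sums overlapped there too, at 37.3 to 46.8 and 33.1 to 42.8 CPM. After differentiation both were higher following SGC0946, at 41.2 to 46.6 against 30.8 to 39.9 CPM and 14.3 to 15.55 against 6.48 to 7.88 CPM. The part of other cells in the results was not tested. In bulk RNA fewer expressing cells and less RNA per cell cannot be told apart.

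The 250 bases before the annotated start were read from GRCh38 at the GENCODE release 44 transcript starts for 55 of the 56 genes. LOC105370224 had no entry. Promoters differ mainly in how many CG dinucleotides they hold, which matters for Polycomb complexes because subunits of PRC1.1 bind unmethylated CG. The promoters below belong to genes among the 20 highest with SGC0946 at 168 h and are shown as examples of promoters with few and with many CG, from 3 to 47. Over the same 20 genes the number ran from 0, in CPA3, to 47, in TSPAN7. They are printed 5′ to 3′ on the strand of the gene with each CG in capitals. ITLN1 lies on the minus strand (chr1:160885181-160885430), as do NMU (chr4:55636299-55636548) and ALDH1A1 (chr9:72953054-72953303), and TSPAN7 lies on the plus strand (chrX:38561292-38561541).
ITLN1: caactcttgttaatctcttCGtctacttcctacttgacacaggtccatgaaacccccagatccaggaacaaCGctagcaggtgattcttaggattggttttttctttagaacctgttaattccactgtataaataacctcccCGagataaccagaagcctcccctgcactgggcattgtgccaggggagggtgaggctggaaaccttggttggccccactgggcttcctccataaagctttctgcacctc
NMU: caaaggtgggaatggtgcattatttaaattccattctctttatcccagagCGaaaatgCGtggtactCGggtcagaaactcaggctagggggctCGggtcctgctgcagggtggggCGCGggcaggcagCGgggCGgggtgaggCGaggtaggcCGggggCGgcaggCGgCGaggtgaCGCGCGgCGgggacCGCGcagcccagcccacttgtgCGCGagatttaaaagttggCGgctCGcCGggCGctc
ALDH1A1: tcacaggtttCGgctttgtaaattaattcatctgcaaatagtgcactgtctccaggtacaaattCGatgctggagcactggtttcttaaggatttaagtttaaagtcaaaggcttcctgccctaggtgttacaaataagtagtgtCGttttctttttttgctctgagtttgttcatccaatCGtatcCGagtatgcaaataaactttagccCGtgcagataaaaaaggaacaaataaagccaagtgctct
TSPAN7: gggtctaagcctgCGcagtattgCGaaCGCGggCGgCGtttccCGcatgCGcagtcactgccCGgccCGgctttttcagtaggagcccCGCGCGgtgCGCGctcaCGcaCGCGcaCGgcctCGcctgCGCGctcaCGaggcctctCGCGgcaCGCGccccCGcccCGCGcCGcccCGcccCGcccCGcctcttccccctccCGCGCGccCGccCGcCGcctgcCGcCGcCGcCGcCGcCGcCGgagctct

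ITLN1 held 3 CG in its window, ALDH1A1 6, NMU 25 and TSPAN7 47. Among the 55 promoters the median ratio of observed to expected CG was 0.44, and 22 (40%) reached 0.6, a limit of this ratio used for CpG islands. No limit on GC content was set, and the 22 include ALDH1A1 and ARID5B, at 38.4% and 40.4% GC. Among 10176 other protein-coding genes under 1.5 CPM in DMSO the median was 0.53 and 45.7% reached that limit, while among 7919 protein-coding genes at 4 CPM or more it was 0.86 and 90.1%. In this respect the 55 promoters were nearer to those of other silent genes than to those of expressed genes. The median GC content was 58% in the 55 windows and 60% in the other silent genes. The letters AGATAA, a form of the site bound by GATA factors, stood on either strand in 8 of 55 windows (14.5%), including those of ITLN1, ALDH1A1, CPA3 and FCGR2A, against 8.67% of the other silent genes and 6.51% of all 19243 protein-coding genes. TGTGGT, a form of the RUNX site, stood in 4 windows (7.27%) against 10.6%, and GGAAGT, a form of the ETS site, in 13 (23.6%) against 16.7%. None of these 3 motifs overlaps another in sequence, and a match is a description of letters only.

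The 55 genes with a position were spread over the genome, with 9 on chromosome 1 and at most 5 on any other. Among these 55, 3 pairs lay within 500 kb of each other. CASP4 and CARD16 are 72.0 kb apart on chromosome 11, CCR7 and TNS4 52.2 kb apart on chromosome 17, and TCEAL9 and NXF3 263.3 kb apart on chromosome X. Some lie over other genes, and without a stated strand setting their reads cannot be told apart from those of a partner. TRABD2A lies opposite TMSB10, whose own mean was 620.2 CPM with DMSO and 1212 CPM with SGC0946. STAMBPL1 overlaps FAS on the same strand, at 3.99 and 7.40 CPM. APOBR lies opposite CLN3, TRAF3IP3 opposite C1orf74, CRYAB opposite HSPB2 and ST20-AS1 opposite ST20. CARD16, FCGR2A, AKR1C3 and SIGLEC17P have close copies elsewhere, so their counts are uncertain for that reason too.

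At 168 h the values below chose the genes and are given without a test. The highest means with SGC0946 were those of ITLN1, NMU, RAB32, SFRP2, CXCR3 and ALDH1A1. ITLN1, a secreted lectin that binds microbial sugars, had 0, 0.464, 0.315 and 1.01 CPM in the DMSO libraries and 24.3, 18, 26.4 and 14.9 CPM with SGC0946. RAB32, a small GTPase of organelle trafficking, had 0, 0.232, 0.63 and 0.287 CPM and then 22.6, 14.4, 18.6 and 18.4 CPM. CXCR3, a chemokine receptor of activated T cells, had 0, 2.32, 1.57 and 2.01 CPM and then 15.5, 15.4, 13.8 and 11.5 CPM. In these 3 genes the groups were well apart. The DMSO libraries differed among themselves by a few reads in ITLN1 and RAB32, and by more in CXCR3, from 0 to 2.32 CPM. Each SGC0946 library lay above each DMSO library in 966 of the 10099 genes compared. That held for 55 of the 56, a count the rule largely set. The exception was the anion exchanger gene SLC4A3, with 0.383, 0, 0.787 and 2.44 CPM in DMSO and 5.9, 4.95, 5.35 and 1.71 CPM with SGC0946. Of the 10099 genes tested in this contrast 5.06% were called higher, and 55 of the 56 were among them, a count that the rule itself largely set.

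**Figure D1:**
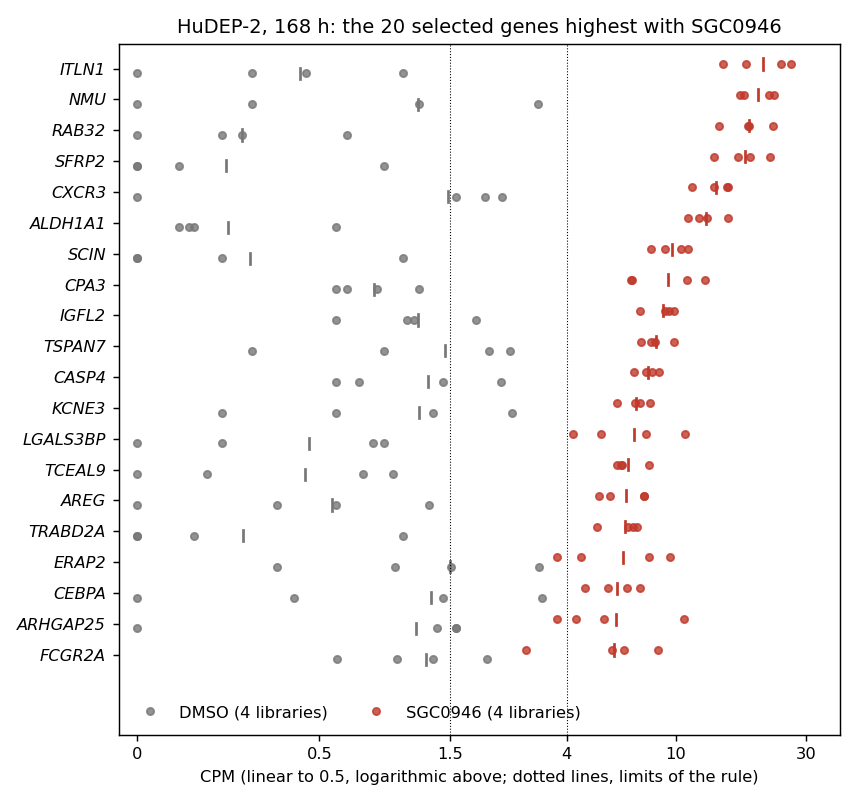
CPM in each of the 8 HuDEP-2 libraries at 168 h for the 20 genes with the highest mean in SGC0946, with points for libraries and bars for group means. The SGC0946 means run from 20.9 CPM in ITLN1 to 5.95 CPM in FCGR2A, and the DMSO means stay at or below 1.5 CPM by the rule.

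The limits cut through a continuum. Just inside the upper limit were CRYAB, MTARC1 and APOBR, at means of 4.01, 4.04 and 4.07 CPM with SGC0946. Just outside it were HERC6, FOS and GNG11, at 3.98, 3.97 and 3.95 CPM. Just inside the lower limit were ERAP2, AQP10 and NXF3, at 1.5, 1.48 and 1.48 CPM with DMSO, and just outside it STXBP6, DDIT4L and P2RY1, at 1.51, 1.51 and 1.56 CPM. CARD16 had 1 read with DMSO, a ratio of 125.7 with a 95% counting interval of 22.3 to 4997, and MYOC 2 reads, a ratio of 69.2 (18.9 to 575.5). These intervals cover counting error only.

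Summed over the 56 genes, the level was 36.4, 45.03, 45.05 and 48.4 CPM in the DMSO libraries at 168 h and 403.1, 346.2, 400.2 and 376.6 CPM with SGC0946, which the rule fixed. The pretreatment experiment, which the rule did not use, gave 64.3, 65.3 and 64.0 CPM in DMSO Undifferentiated and 303.8, 280.9 and 280.6 CPM in SGC0946 Undifferentiated. After differentiation it was 71.1, 67.6 and 74.2 CPM following DMSO and 542.5, 433.5 and 479.2 CPM following SGC0946. The groups did not overlap in either medium. NMU alone held 207, 132 and 172 CPM of the SGC0946 sums after differentiation, against 19.9, 12.6 and 20.8 CPM in SGC0946 Undifferentiated. In K562 the sum was already 922.6 to 1015 CPM with DMSO and was 1060 to 1178 CPM with SGC0946. NMU held 361.4 to 470.5 CPM of it with DMSO and 502.6 to 587.4 CPM with SGC0946. The experiments differ in time and were counted in separate tables, so levels are set side by side only.

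**Figure D2:**
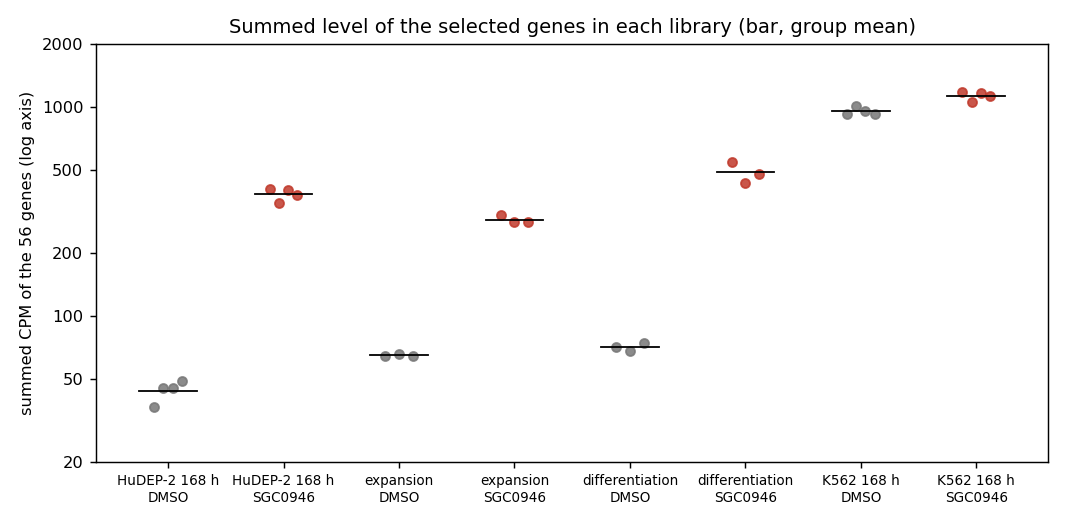
Summed CPM of the 56 genes in each library by group, on a log axis, with points for libraries. The SGC0946 libraries of HuDEP-2 sit at 280.6 CPM or more and the DMSO libraries at 74.2 CPM or less, while the K562 libraries lie at 922.6 CPM or more. NMU alone gives 131.5 CPM or more in each SGC0946 Differentiation library and 361.4 CPM or more in each K562 library.

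In the pretreatment experiment the mean of each of the 56 genes was higher in SGC0946 Undifferentiated than in DMSO Undifferentiated. In 47 of them the 3 libraries of each group did not overlap, as in 8.67% of the 9408 genes compared. How many of all genes had a higher mean with SGC0946 was not counted in either medium. Of the 56, 48 passed the filter of at least 2 CPM in at least 2 of the 12 libraries. A gene could pass through its SGC0946 libraries alone, so counts over the 48 are a description. With edgeR's quasi-likelihood test, run without pairing the libraries, 39 of 48 rose in expansion medium and none fell. Of all 9848 genes 3.11% rose. At an unadjusted p under 0.05 it was 43 higher and 0 lower, and DESeq2 called 40. The median log2 fold change was 2.33 in the 48 and -0.0010 over all genes. After differentiation the mean was higher following SGC0946 in 52 of 56 genes, with groups that did not overlap in 45 (14.7% of all genes compared), and 41 of 48 rose while none fell (6.37% of all genes rose). The median log2 fold change was 2.79, or 2.82 with genes without reads in DMSO at their lower bound. At an unadjusted p under 0.05 these counts were 41 higher and 0 lower, and DESeq2 called 41.

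**Figure D3:**
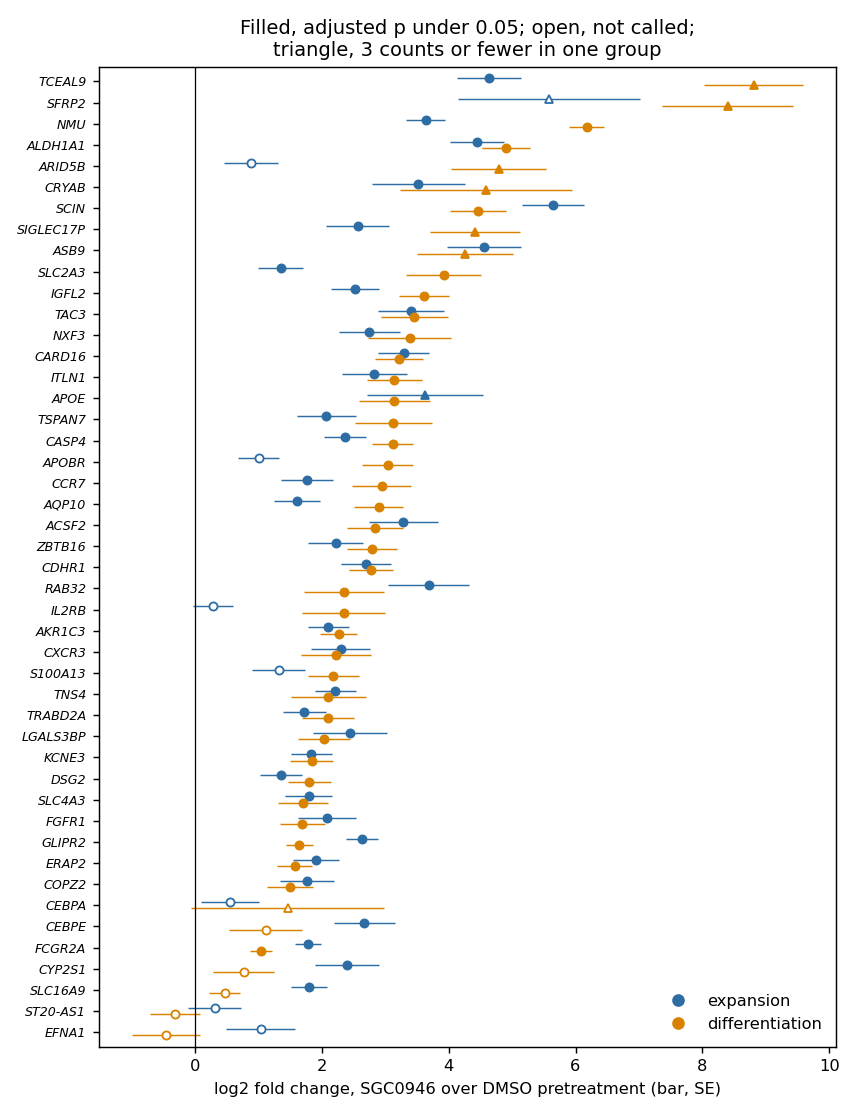
Log2 fold change of SGC0946 over DMSO with its SE, 1 row for each tested gene shown, in expansion medium (blue) and after differentiation (orange), with filled symbols for calls and triangles for genes with 3 counts or fewer in a group. CPA3 is left out because it had no read in the differentiation libraries. In expansion medium all values lie above 0, after differentiation all but those of ST20-AS1 and EFNA1 do, and NMU has the largest value after differentiation among the genes shown as circles.

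Of the genes tested, 36 rose in both media. Of all genes, 3.11% rose in expansion medium and 6.37% after differentiation, and those that rose in both were not counted. CEBPE, SLC16A9 and CYP2S1 were called in expansion medium alone, and ARID5B, IL2RB, S100A13, SFRP2 and APOBR after differentiation alone. CEBPA, EFNA1, CPA3 and ST20-AS1 were called in neither. With the replicate number as a block, which pairs the libraries of this experiment, SFRP2, S100A13, APOBR and CPA3 were called in expansion medium too (edgeR adjusted p = 0.00366, 0.0158, 0.0262 and 0.0294). The 8 that did not pass the filter were MTARC1, ARHGAP25, CCNA1, TRAF3IP3, MYOC, AREG, LOC105370224 and STAMBPL1. Both limits of the rule were met again by 13 genes in expansion medium and by 14 after differentiation. How many of all genes met them there was not counted.

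Secreted and extracellular proteins made up 11 of the 56 genes, of which 9 were tested, 7 rose in expansion medium and 8 after differentiation. NMU encodes neuromedin U, a neuropeptide. It had 2.08, 1.37 and 1.004 CPM in DMSO Undifferentiated and 19.9, 12.6 and 20.8 CPM in SGC0946 Undifferentiated. After differentiation it had 2.27, 1.81 and 2.78 CPM following DMSO and 207, 132 and 172 CPM following SGC0946. The groups were far apart in both media, and the SGC0946 libraries after differentiation were the highest of all. The log2 fold change was 3.64 ± 0.31 (SE) in expansion medium (edgeR adjusted p = 2.14e-06) and 6.17 ± 0.27 after differentiation (edgeR adjusted p = 1.55e-09). SFRP2, a secreted modulator of Wnt signalling, had no read in the 6 DMSO libraries of this experiment. With SGC0946 it had 0.31, 1.59 and 0.248 CPM in expansion medium and 4.18, 3.76 and 6.05 CPM after differentiation. It was at least 7.00-fold higher in expansion medium, where edgeR gave an adjusted p of 0.0536, or 0.00366 with the replicate number as a block, and at least 53.1-fold higher after differentiation (edgeR adjusted p = 0.000263).

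ITLN1, the highest gene at 168 h, stood lower in this experiment, with 0.613, 0.586 and 0.0913 CPM in DMSO Undifferentiated and 2.79, 2.17 and 3.85 CPM in SGC0946 Undifferentiated. In differentiation medium it had 0.544, 0.425 and 1.096 CPM following DMSO and 6.69, 6.09 and 6.76 CPM following SGC0946. It rose by a log2 fold change of 2.83 ± 0.51 (edgeR adjusted p = 0.00317) and 3.14 ± 0.43 (edgeR adjusted p = 0.000175), with no overlap in either medium. IGFL2, a member of the insulin-like growth factor-like family, rose by 2.53 ± 0.37 and 3.61 ± 0.39 on the log2 scale (edgeR adjusted p = 0.000554 and 1.74e-05). APOE, the lipid carrier apolipoprotein E, TAC3, the precursor of neurokinin B, and LGALS3BP, a galectin-binding glycoprotein, also rose in both media. The expansion call of APOE was lost without any 1 of the DMSO Undifferentiated libraries or without SGC0946 Undifferentiated replicate 2 or 3 (log2 fold changes of 2.81 to 4.55), and that of LGALS3BP without DMSO Undifferentiated replicate 1 or 3 or any 1 SGC0946 library (1.96 to 2.50). AREG, a ligand of the EGF receptor with 7.68, 5.26, 5.74 and 7.68 CPM at 168 h, stayed at 0.621, 1.3 and 0.994 CPM in SGC0946 Undifferentiated against 0.368, 0.489 and 1.1 CPM in DMSO Undifferentiated, so its groups overlapped and it was not tested.

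Receptors and other surface proteins made up 9 genes, all tested, of which 7 rose in expansion medium and 9 after differentiation. CXCR3 had 0.245, 1.66 and 2.37 CPM in DMSO Undifferentiated and 5.74, 9.82 and 6.34 CPM in SGC0946 Undifferentiated. After differentiation it had 0.362, 0.425 and 1.1 CPM following DMSO and 3.18, 3.22 and 3.1 CPM following SGC0946. It rose by 2.30 ± 0.46 and 2.22 ± 0.55 on the log2 scale (edgeR adjusted p = 0.00738 and 0.0185). The first call was lost without SGC0946 Undifferentiated replicate 2 (2.05), the second without DMSO Differentiation replicate 1 or 2 or SGC0946 Differentiation replicate 2 or 3 (1.93 to 2.23). CCR7, a chemokine receptor that guides lymphocytes and dendritic cells to lymph nodes, rose by 1.77 ± 0.41 and 2.94 ± 0.46 (edgeR adjusted p = 0.0198 and 0.000553). The summed level of the T and NK cell genes was 0.859 to 1.56 CPM in DMSO Undifferentiated and 3.03 to 4.502 CPM in SGC0946 Undifferentiated beside them. CD3E was at 0 in both groups and CD3G had reads with SGC0946 alone, while CD3D, the 1 gene of that list tested, had a log2 fold change of 2.02 that was not called in expansion medium and one of 4.47 that was called after differentiation. IL2RB, the beta chain of the receptor for interleukins 2 and 15, behaved otherwise in expansion medium, at 3.19, 4.79 and 3.83 CPM with DMSO and 4.81, 5.2 and 4.22 CPM with SGC0946, which overlapped (edgeR adjusted p = 0.802). In differentiation medium it had 0.272, 0 and 0.146 CPM following DMSO and 1.003, 0.896 and 0.563 CPM following SGC0946 (log2 fold change 2.35 ± 0.65, edgeR adjusted p = 0.0338), a call lost without DMSO Differentiation replicate 2 or 3 or any 1 SGC0946 library (1.88 to 2.56). FCGR2A, a low-affinity receptor for IgG, was the most abundant of the group in this experiment. It had 4.29, 3.03 and 4.02 CPM in DMSO Undifferentiated and 14.9, 12.4 and 11.3 CPM in SGC0946 Undifferentiated, and 11.2, 12.3 and 9.5 CPM against 25.9, 19.5 and 22.8 CPM after differentiation, so it was not silent in DMSO here. Its log2 fold changes were 1.79 ± 0.20 and 1.05 ± 0.17 (edgeR adjusted p = 4.78e-05 and 0.000945). FGFR1, a fibroblast growth factor receptor, rose by 2.08 ± 0.46 and 1.69 ± 0.36 (edgeR adjusted p = 0.015 and 0.00628), and TSPAN7, a tetraspanin, by 2.07 ± 0.47 and 3.13 ± 0.61 (edgeR adjusted p = 0.0164 and 0.00346). In expansion medium the call of FGFR1 was lost without DMSO Undifferentiated replicate 2 or 3 or SGC0946 Undifferentiated replicate 2 (1.76 to 2.02), and that of TSPAN7 without replicate 1 or 3 or the same SGC0946 library (1.95 to 2.01).

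Transcription factors and regulators made up 6 genes, of which 5 were tested, 3 rose in expansion medium and 3 after differentiation. CEBPA, which drives granulocyte and monocyte fate, had 3.26, 0, 1.42 and 0.431 CPM with DMSO and 4.68, 5.68, 6.63 and 7.43 CPM with SGC0946 at 168 h. In the pretreatment experiment it had 2.08, 2.64 and 1.19 CPM in DMSO Undifferentiated and 2.02, 2.46 and 3.85 CPM in SGC0946 Undifferentiated, which overlapped (edgeR adjusted p = 0.693). It had at most 0.281 CPM in the 6 differentiation libraries. CEBPE, which acts later in granulocyte maturation, had 0.49, 0.586 and 0.548 CPM in DMSO Undifferentiated and 3.1, 3.75 and 3.6 CPM in SGC0946 Undifferentiated, a log2 fold change of 2.67 ± 0.48 (edgeR adjusted p = 0.00309). After differentiation it had 0.272, 0.212 and 0.804 CPM following DMSO and 1.67, 0.537 and 0.845 CPM following SGC0946, which overlapped (edgeR adjusted p = 0.295). The granulocyte list to which CEBPE belongs, its own reads included, was higher in expansion medium, at 0.736 to 1.47 CPM with DMSO and 7.30 to 8.81 CPM with SGC0946. MPO, ELANE, PRTN3 and AZU1 were at 0 in both groups. Both genes of that list tested there rose, CEBPE itself and LCN2, which encodes a granule protein of neutrophils.

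ZBTB16, the zinc finger factor PLZF, rose by 2.22 ± 0.43 in expansion medium and 2.80 ± 0.39 after differentiation (edgeR adjusted p = 0.00526 and 0.000222). TCEAL9, named for its likeness to transcription elongation factor A, had 0.245, 0 and 0.457 CPM in DMSO Undifferentiated and 6.37, 7.08 and 5.22 CPM in SGC0946 Undifferentiated, and rose by 4.64 ± 0.50 (edgeR adjusted p = 6.4e-05). In differentiation medium it had no read in 3 DMSO libraries and 6.02, 6.45 and 6.33 CPM following SGC0946, at least 71.3-fold higher (edgeR adjusted p = 4.57e-06). Its level in the SGC0946 libraries thus hardly differed between the media. ARID5B, a DNA-binding regulator that recruits a histone demethylase, had 2.7, 4.79 and 1.64 CPM in DMSO Undifferentiated and 7.45, 3.47 and 5.59 CPM in SGC0946 Undifferentiated, which overlapped (edgeR adjusted p = 0.365). After differentiation it had 0, 0 and 0.219 CPM following DMSO and 2.34, 3.76 and 2.39 CPM following SGC0946 (edgeR adjusted p = 0.000601). The 3 reads behind the DMSO value make the size of that difference imprecise. CCNA1, a cyclin known from meiosis, had no read in DMSO Undifferentiated and was at least 10.6-fold higher in SGC0946 Undifferentiated at 1.24, 1.01 and 0.994 CPM, without a test.

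Enzymes made up 9 genes, of which 7 were tested, 6 rose in expansion medium and 5 after differentiation. ALDH1A1 oxidises retinaldehyde to retinoic acid. At 168 h it had 0.575, 0.116, 0.158 and 0.144 CPM with DMSO and 12.1, 11.1, 13 and 15.5 CPM with SGC0946. In the pretreatment experiment it had 0.49, 0.0977 and 0.365 CPM in DMSO Undifferentiated, 6.21, 7.51 and 7.08 CPM in SGC0946 Undifferentiated, 0.816, 0.319 and 0.219 CPM in DMSO Differentiation and 16.6, 13.2 and 11.5 CPM in SGC0946 Differentiation. All libraries with SGC0946 stood above all with DMSO, and the log2 fold changes were 4.45 ± 0.43 and 4.90 ± 0.37 (edgeR adjusted p = 8.84e-06 and 3.95e-07). AKR1C3, an aldo-keto reductase of steroids and prostaglandins, had 4.42, 3.23 and 3.29 CPM in DMSO Undifferentiated and 21.4, 11.1 and 13.4 CPM in SGC0946 Undifferentiated, and 6.25, 4.14 and 7.67 CPM against 40.3, 20.4 and 28.4 CPM after differentiation. It rose by 2.10 ± 0.32 and 2.27 ± 0.29 (edgeR adjusted p = 0.000837 and 9.39e-05). ERAP2, an aminopeptidase that trims antigenic peptides, rose by 1.91 ± 0.36 and 1.58 ± 0.28 (edgeR adjusted p = 0.00438 and 0.0014). TRABD2A, a membrane metalloprotease, rose by 1.73 ± 0.34 and 2.10 ± 0.41 (edgeR adjusted p = 0.00647 and 0.00358), with the overlap with TMSB10 given above. CPA3, the carboxypeptidase of mast cell granules, had 11, 6.84, 12.8 and 6.95 CPM with SGC0946 at 168 h. It had 0.123, 0.391 and 0.274 CPM in DMSO Undifferentiated and 2.17, 2.02 and 0.497 CPM in SGC0946 Undifferentiated (edgeR adjusted p = 0.104, or 0.0294 with the replicate block), and no read in any of the 6 differentiation libraries, which allows at most 3 reads over a group. The mast cell list beside it overlapped between the groups, at 736.6 to 1447 and 755.3 to 1343 CPM.

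Channels and transporters made up 5 genes, all tested, of which 5 rose in expansion medium and 4 after differentiation. KCNE3, an accessory subunit of potassium channels, had 1.59, 2.15 and 2.19 CPM in DMSO Undifferentiated and 5.74, 9.24 and 6.21 CPM in SGC0946 Undifferentiated, and rose by 1.84 ± 0.32 (edgeR adjusted p = 0.0026). It rose by 1.85 ± 0.34 after differentiation (edgeR adjusted p = 0.00215). SLC2A3, the glucose transporter GLUT3, had 1.47, 1.76 and 2.56 CPM in DMSO Undifferentiated and 6.05, 4.91 and 3.98 CPM in SGC0946 Undifferentiated (log2 fold change 1.36 ± 0.35, edgeR adjusted p = 0.0423). That call was lost without DMSO Undifferentiated replicate 1 or 2 or any 1 SGC0946 library (1.20 to 1.48). In differentiation medium it had 0.0906, 0 and 0.219 CPM following DMSO and 1.84, 1.97 and 2.11 CPM following SGC0946 (edgeR adjusted p = 0.000419). SLC16A9, a transporter of the monocarboxylate family, had 1.35, 1.56 and 1.1 CPM in DMSO Undifferentiated and 5.12, 5.05 and 3.73 CPM in SGC0946 Undifferentiated (log2 fold change 1.81 ± 0.28, edgeR adjusted p = 0.00107). After differentiation it had 3.26, 4.78 and 3.44 CPM following DMSO and 4.51, 5.73 and 5.63 CPM following SGC0946, which overlapped (edgeR adjusted p = 0.31).

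CASP4 and CARD16, neighbours on chromosome 11, belong to the inflammatory caspase locus. CASP4 senses bacterial lipopolysaccharide in the cytosol, and CARD16 is a short protein related to caspase-1. CASP4 had 3.07, 1.56 and 1.37 CPM in DMSO Undifferentiated and 13.7, 9.39 and 6.96 CPM in SGC0946 Undifferentiated, and 2.54, 1.81 and 1.32 CPM against 20.6, 14.3 and 14.4 CPM after differentiation. CARD16 had 3.07, 0.977 and 1.1 CPM and then 19.2, 11.6 and 16.8 CPM in expansion medium, and 2.45, 1.38 and 1.75 CPM against 22.1, 10.03 and 20.6 CPM after differentiation. Neither gene's groups overlapped in either medium. CASP4 rose by 2.37 ± 0.34 and 3.12 ± 0.32 (edgeR adjusted p = 0.00041 and 8.88e-06) and CARD16 by 3.30 ± 0.40 and 3.22 ± 0.38 (edgeR adjusted p = 9.2e-05 and 4.34e-05).

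Cytoskeletal, trafficking and other cytoplasmic proteins made up 11 genes, of which 9 were tested, 8 rose in expansion medium and 9 after differentiation. SCIN, scinderin, severs actin filaments. It had 0, 0.391 and 0.0913 CPM in DMSO Undifferentiated and 10.6, 9.24 and 7.58 CPM in SGC0946 Undifferentiated, and 0.272, 0.106 and 0.439 CPM against 5.52, 6.99 and 7.74 CPM after differentiation. The fold changes were among the largest of the tested genes, at 5.65 ± 0.48 and 4.46 ± 0.44 on the log2 scale (edgeR adjusted p = 2.39e-06 and 5.78e-06). RAB32 had 3.26, 3.18 and 3.23 CPM in SGC0946 Undifferentiated and 0.368, 0.196 and 0.183 CPM in DMSO Undifferentiated, and rose by 3.69 ± 0.64 (edgeR adjusted p = 0.00233). ASB9, a substrate adaptor of a ubiquitin ligase, rose by 4.56 ± 0.58 and 4.26 ± 0.76 (edgeR adjusted p = 0.00015 and 0.0016). GLIPR2, a protein of the Golgi membrane, was better covered, with 1.35, 2.64 and 2.92 CPM in DMSO Undifferentiated, 16.6, 12.4 and 14.5 CPM in SGC0946 Undifferentiated, 8.61, 6.91 and 10.5 CPM in DMSO Differentiation and 31.1, 26.3 and 25.6 CPM in SGC0946 Differentiation. It rose by 2.64 ± 0.26 and 1.64 ± 0.21 (edgeR adjusted p = 9.41e-06 and 9.28e-05). CRYAB, a small heat shock protein, had 0.981, 0.293 and 0.183 CPM in DMSO Undifferentiated and 6.83, 6.35 and 2.86 CPM in SGC0946 Undifferentiated (log2 fold change 3.53 ± 0.73, edgeR adjusted p = 0.00929), a call lost without DMSO Undifferentiated replicate 2 or 3 (3.26 and 3.12). In differentiation medium it had 0.0906, 0 and 0 CPM following DMSO and 2.51, 0.717 and 0 CPM following SGC0946, which overlapped although the call passed (edgeR adjusted p = 0.0482). DMSO held 1 read, and the call was lost without any 1 DMSO library or without SGC0946 Differentiation replicate 1 or 2 (2.94 to 6.19). Of the 3 non-coding genes and pseudogenes 2 were tested, and SIGLEC17P, a pseudogene of the Siglec family, rose in both media.

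**Figure D4:**
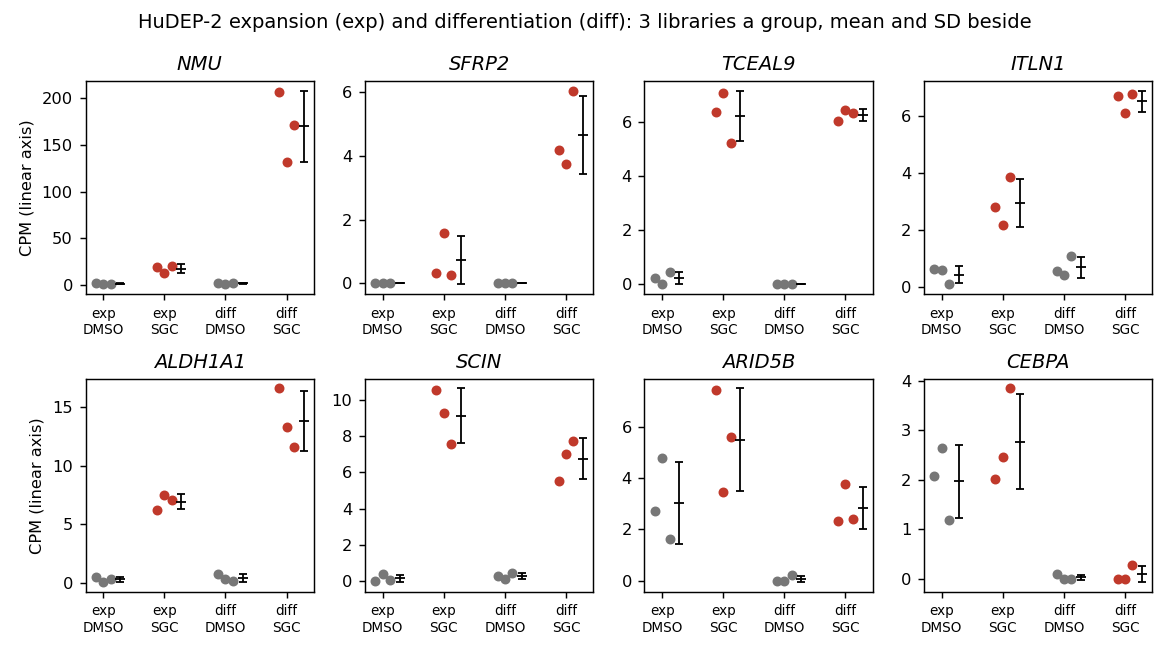
CPM of NMU, SFRP2, TCEAL9, ITLN1, ALDH1A1, SCIN, ARID5B and CEBPA in the 12 libraries of the pretreatment experiment, with points for libraries and bars for means of 3. NMU reaches a mean of 170 CPM after SGC0946 and differentiation against 17.7 CPM in expansion medium, while CEBPA is near 0 in all differentiation libraries.

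Differentiation was also compared with expansion after DMSO alone. Of 48 tested, 6 rose (8.12% of all genes) and 6 fell (7.60%) from DMSO Undifferentiated to DMSO Differentiation, with a median log2 fold change of -0.071, or -0.095 over the 46 with reads. LGALS3BP, GLIPR2, ERAP2, FGFR1, FCGR2A and SLC16A9 rose. GLIPR2 went up by 2.01 ± 0.26 on the log2 scale (edgeR adjusted p = 5.46e-05), ERAP2 by 1.98 ± 0.35 (edgeR adjusted p = 0.000918) and FCGR2A by 1.66 ± 0.20 (edgeR adjusted p = 2.83e-05). The call of LGALS3BP was lost without DMSO Undifferentiated replicate 3 (2.005), and that of FGFR1 without DMSO Undifferentiated replicate 2 or 3 or DMSO Differentiation replicate 3 (1.39 to 1.65). CEBPA, ARID5B, IL2RB, SLC2A3, TNS4 and APOBR fell. CEBPA went from 57 reads to 1, a ratio of 0.0151 with a 95% counting interval of 0.000375 to 0.0875 (edgeR adjusted p = 0.000371). IL2RB dropped by 4.502 ± 0.491 (edgeR adjusted p = 1.21e-05) and TNS4, a tensin of focal adhesions, by 3.05 ± 0.49 (edgeR adjusted p = 0.000428). These 6 genes had means of 1.93 CPM or more in DMSO Undifferentiated, above the 1.5 CPM that chose them at 168 h. Same-numbered libraries varied together in this experiment. With the replicate number as a block, 10 rose (18.6% of all genes) and 11 fell (18.2%). NMU, AKR1C3, APOE and COPZ2 were then added to those that rose (edgeR adjusted p = 0.0205, 0.000832, 0.00718 and 0.0318). CPA3, TCEAL9, NXF3, CCR7 and CRYAB were added to those that fell (edgeR adjusted p = 0.045, 0.0194, 0.0487, 0.0389 and 0.017).

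The interaction tests whether the effect of SGC0946 differed between the media. Without the replicate block it called 1 of 48 genes higher (0.396% of all genes) and none lower. At an unadjusted p under 0.05 there were 7 higher and 4 lower, and DESeq2 called 3. The gene was NMU, with a difference of 2.54 ± 0.46 between its log2 fold changes (edgeR adjusted p = 0.0194). The call was lost without DMSO Undifferentiated replicate 1 (2.26) or 2 (2.60). With the replicate block NMU, SLC2A3, ARID5B and APOBR were called higher (3.93% of all genes) and SLC16A9 and GLIPR2 lower (5.09%). ARID5B then had a difference of 3.84 (edgeR adjusted p = 0.000929) and SLC2A3 of 2.56 (edgeR adjusted p = 0.033). In both, the DMSO libraries held 4 reads or fewer in all after differentiation while the SGC0946 libraries kept 1.84 CPM or more. GLIPR2 had a difference of -0.97 (edgeR adjusted p = 0.0197) and SLC16A9 of -1.33 (edgeR adjusted p = 0.0487), with DMSO levels that rose on differentiation. In most of the genes the effect was not shown to differ between the media.

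In K562 with DMSO 16 of the 56 genes had at least 4 CPM, while 32 were under 1.5 CPM as in HuDEP-2. Of 29 tested, 16 rose with SGC0946 (17.7% of all genes) and 3 fell (17.2%), with a median log2 fold change of 0.71 against -0.0064 over all genes. Here too a gene could pass the filter through its SGC0946 libraries alone, as ASB9 and ALDH1A1 did. The counts and the median are therefore a description. ALDH1A1 alone met both limits of the rule again. It had 0.137, 0, 0.432 and 0.686 CPM with DMSO and 5.01, 7.5, 4.22 and 5.2 CPM with SGC0946, a log2 fold change of 4.11 ± 0.52 (edgeR adjusted p = 2.52e-06), without overlap. ASB9 had no read in 4 DMSO libraries and 1.36, 1.23, 2.79 and 2.78 CPM with SGC0946, at least 21.5-fold higher (edgeR adjusted p = 4e-05).

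TAC3 had 5.05, 2.55, 1.87 and 4.34 CPM in K562 with DMSO and 25.1, 16.9, 19.8 and 26.3 CPM with SGC0946 (log2 fold change 2.71 ± 0.24, edgeR adjusted p = 1.48e-08). APOE had 6.41, 6.85, 2.74 and 4.11 CPM and then 28.5, 27.9, 34.8 and 26.8 CPM (2.59 ± 0.21, edgeR adjusted p = 3.5e-09). CRYAB had 5.19, 2.79, 3.46 and 2.29 CPM and then 16.1, 18.5, 19.6 and 19.2 CPM (2.48 ± 0.22, edgeR adjusted p = 1.37e-08). These 3 genes were expressed at a low level in K562 before treatment and rose without overlap. NMU was the most abundant of the 56 in K562, at 391.8, 470.5, 413 and 361.4 CPM with DMSO and 584.1, 502.6, 587.4 and 529.3 CPM with SGC0946, a small but called rise of 0.48 ± 0.08 (edgeR adjusted p = 0.000151). AREG and SLC2A3 were among those that fell. AREG had 82.4, 120, 100 and 70.6 CPM with DMSO and 31.2, 28.1, 31 and 29.9 CPM with SGC0946, and fell by 1.59 ± 0.14 on the log2 scale (edgeR adjusted p = 1.06e-08). SLC2A3 had 121, 92.5, 131 and 146 CPM and then 87, 83.1, 82.5 and 87.2 CPM, and fell by 0.48 ± 0.10 (edgeR adjusted p = 0.000925). The groups of neither gene overlapped. Both were well expressed in K562, while in HuDEP-2 with DMSO at 168 h their means were under 1.5 CPM. ITLN1, SFRP2, IGFL2, CPA3, CCR7 and IL2RB had no read in the K562 DMSO libraries and at most 0.616 CPM in any SGC0946 library.

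**Figure D5:**
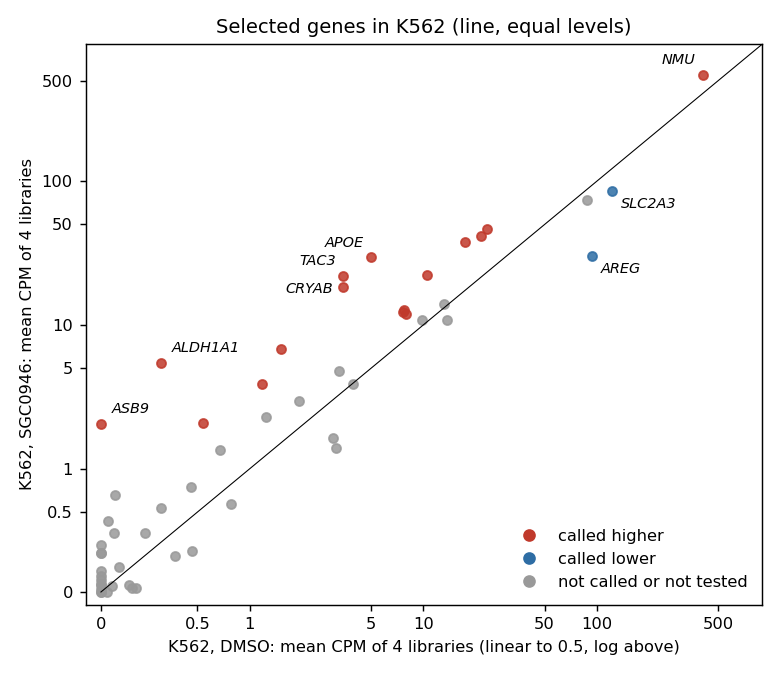
Mean CPM of 4 libraries with DMSO (horizontal) against SGC0946 (vertical) for the selected genes shown in K562, on axes linear to 0.5 and logarithmic above, with the line of equal levels. ASB9 and ALDH1A1 lie farthest above the line, and AREG and SLC2A3 below it at 93.3 CPM or more with DMSO.

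In MOLM13 control cells 55 of the genes were in the table and 25 were tested. After 72 h with SGC0946, 9 rose (7.23% of all genes) and 1 fell (5.77%), with a median log2 fold change of 0.55 against 0.00050 over all genes. A gene could pass the filter through any 2 of the 27 libraries of the model, so these counts are a description. CEBPE had 1.23, 1.56 and 2.82 CPM with DMSO and 14.5, 11.8 and 15.4 CPM with SGC0946, a log2 fold change of 2.91 ± 0.26 (edgeR adjusted p = 3.17e-09). GLIPR2 had 13, 9.95 and 16.9 CPM and then 34.2, 33.9 and 35 CPM (1.41 ± 0.15, edgeR adjusted p = 8.08e-08). MTARC1, an amidoxime reductase of the mitochondrial membrane, had 3.51, 4.49 and 5.14 CPM and then 13.1, 13.7 and 9.57 CPM (1.503 ± 0.223, edgeR adjusted p = 2.19e-05). None of these groups overlapped. ARID5B and KCNE3 rose by 1.44 ± 0.29 and 1.20 ± 0.20 (edgeR adjusted p = 0.0012 and 0.00011). NXF3, a relative of the mRNA export receptor, had 51.1, 59.1 and 51.4 CPM with DMSO and 44.3, 39.7 and 46.1 CPM with SGC0946, and fell by 0.27 ± 0.09 (edgeR adjusted p = 0.0488), a call lost without DMSO replicate 2 or any 1 SGC0946 library (-0.30 to -0.19) and with DESeq2. GLIPR2 and ARID5B rose in both K562 and MOLM13. The K562 call of ARID5B, at 0.62 ± 0.22 (edgeR adjusted p = 0.0356), was lost without DMSO replicate 1, 2 or 3 or SGC0946 replicate 2 (0.43 to 0.58). GLIPR2 rose in the 4 comparisons of SGC0946 with DMSO outside the rule. No gene met both limits of the rule in MOLM13, which differed from HuDEP-2 in time as well as in cell type.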

How the data were processed

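RNA was profiled by 3′ RNA-seq, and bbmap served for trimming and STAR for alignment to GRCh38. The authors deposited raw counts of reads per gene and library. The strand setting is not given in the sources used here. Groups came from the sample labels, and 24 columns of MOLM13 washout samples that share a table with K562 were not used. The labels name mouse as the organism of the 168 h HuDEP-2 and K562 samples, while their tables hold human genes. In the K562 table an empty field precedes the value of the last K562 column, SGC0946 replicate 4, which was read by its place as the only value left. Lines that name no gene held 36.3% to 48.6% of MOLM13 reads per library and at most 0.000318% elsewhere, and were left out of totals.

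The pretreatment libraries are labelled 7 days plus 72 h, also the undifferentiated ones, while a legend of the study gives day 2. The methods speak of plating in duplicate while the labels number 3 replicates, and whether SGC0946 stayed in the differentiation medium is not stated. CPM is a count divided by the library's reads on genes, times 1000000. The members, gene lists, role groups and tests were chosen with earlier results of these data known. In R 4.3.3, edgeR 4.0.16's quasi-likelihood test was run on each table with TMM scaling, keeping genes that reached 2 CPM in 2 or more libraries, with Benjamini-Hochberg adjustment over all genes tested and calls at an adjusted p under 0.05. The 12 pretreatment libraries were fitted in 1 model, as were the 27 MOLM13 libraries. The latter came from control, BCOR knockout and PCGF1 knockout cells given DMSO, SGC0946 or VTP50469, and all of them entered the filter and the spread. The script was tested on simulated data. DESeq2 1.42.0, RLE scaling, other filters and thresholds, a replicate block and leaving out each library were tried as alternatives.

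In the pretreatment experiment same-numbered libraries deviated together from their group means, with correlations of 0.132 to 0.382 in all pairs, so the numbers pair the samples. The pairing comes from this check, not from the labels. The main model did not use it. Where the block is not named, the SE, p-values and calls of this experiment ignore the pairing. The genes whose calls changed with the block in this experiment are named. Genes were named by a rule: the 20 highest with SGC0946 at 168 h, those called with the largest changes in each comparison, those on marker lists and those at the limits. Outside that rule, AKR1C3, APOBR, CARD16, CCNA1, CCR7, COPZ2, CYP2S1, EFNA1, LOC105370224, MYOC, S100A13, SLC16A9, SLC4A3, ST20-AS1, STAMBPL1, TRAF3IP3 and ZBTB16 were named after their values were seen. The values of 1 gene among the 56 are not reported here, while counts and sums over the genes include it. A group without reads was set to 3 counts for a bound.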

Additional observations from a re-analysis of the deposited data

Results flagged for a closer look

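In groups of 4 libraries, 1 library stood apart from the other 3 by more than Dixon's limit in 8 of 85 groups tested. The limit's rate of about 1 in 20 holds for independent normal values. Several groups rest on a few reads and many share libraries, so no excess can be read from the 8. With DMSO at 168 h, SFRP2 had 0.863 CPM in replicate 4 and at most 0.116 CPM in the others, TRABD2A had 1.01 CPM in replicate 4 and at most 0.158 CPM in the others, and ALDH1A1 had 0.575 CPM in replicate 1 and 0.116 to 0.158 CPM in the others. SLC2A3 had 1.39 CPM in DMSO replicate 2 against 0.315 to 0.431 CPM, and ARHGAP25 had 0 CPM there against 1.34 to 1.58 CPM. With SGC0946, TCEAL9 had 8.02 CPM in replicate 1 against 6.11 to 6.37 CPM, TNS4 had 1.37 CPM in replicate 2 against 5.46 to 5.97 CPM, and ARID5B had 2.93 CPM in replicate 3 against 4.88 to 5.23 CPM. The DMSO values at 168 h rest on low read counts.

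The effect of SGC0946 on NMU differed between expansion and differentiation by 2.54 on the log2 scale, as tested by the interaction. For 5 genes the libraries of another line moved the opposite way to those of HuDEP-2 without overlap, and the difference between the lines was not tested. In K562 the log2 fold changes were -1.59 for AREG, -0.477 for SLC2A3, -0.844 for COPZ2 and -0.189 for FCGR2A, of which AREG and SLC2A3 were called lower. In MOLM13 it was -0.269 for NXF3, which was called lower (edgeR adjusted p = 0.0488).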

How the results depend on the processing

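Limits of 1 and 6 CPM chose 10 genes and limits of 2 and 3 CPM chose 173, in place of 56, while CPM from TMM-scaled libraries chose 49, all among the 56, and leaving out 1 library at 168 h gave 55 to 64. The number of these genes called stayed within 1.5 times its main value in the comparisons of SGC0946 with DMSO under the other scaling, filters, threshold and DESeq2. With an adjusted p under 0.1 and a log2 limit of 0.5, differentiation after DMSO called 19 in place of 12, and the interaction 2 in place of 1. The interaction called 3 without a filter and 3 with DESeq2. Leaving out 1 library at a time gave 49 to 56 calls at 168 h, 30 to 37 in expansion medium, 36 to 38 after differentiation, 11 to 13 for differentiation after DMSO, 0 to 1 for the interaction, 16 to 19 in K562 and 7 to 11 in MOLM13. Of 1086 values of single genes under the alternatives, 1010 kept their direction and call, 76 lost the call and 0 reversed, in 22 of 88 results. RAB32 and TNS4 after differentiation lost their calls without any of 4 libraries each, at log2 fold changes of 1.82 to 2.57 and 1.64 to 2.12. Low counts limit the ratios: at 168 h 80.8% of the DMSO values of single genes and libraries rest on fewer than 10 reads.

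With the replicate number as a block in the pretreatment experiment, 43 in place of 39 of these genes were called in expansion medium, adding SFRP2, CPA3, S100A13 and APOBR, 41 in place of 41 after differentiation, 21 in place of 12 for differentiation after DMSO and 6 in place of 1 for the interaction. Over all genes the block gave 911 higher and 607 lower calls in expansion medium in place of 306 and 74, and 1268 and 1187 after differentiation in place of 627 and 198. At 168 h and in K562 the numbers did not pair the samples (correlations of -0.042 to 0.0012 and -0.031 to 0.063). In MOLM13 the correlations were 0.0019 to 0.133, so whether the numbers pair the samples there was not settled. At 168 h, in K562 and in MOLM13 the block gave 51 calls in place of 55, 19 in place of 19 and 12 in place of 10. Under plain CPM scaling the median of all genes moved by -0.12 on the log2 scale for differentiation after DMSO.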
